A study of Homo sapiens with 4 samples.

Results

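A set of 10 genes of the small RNA silencing machinery were followed in the Hodgkin lymphoma cell line KM-H2 on Affymetrix expression arrays. The genes were listed by name, with earlier results of these data known. They were the Argonautes AGO1, AGO2, AGO3 and AGO4, the nuclear processing genes DROSHA and DGCR8 and the export factor XPO5. The others were the cytoplasmic processing genes DICER1 and TARBP2, and the scaffold TNRC6A. Of these 10 genes 9 had probe sets of their own, 31 in all, among the 54613 probe sets tested and the 19775 genes that had any. The annotation assigns 7 further probe sets to AGO2 or DGCR8 together with another gene. These are given apart and are counted for neither gene, which leaves DGCR8 without a probe set of its own.

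One group of 2 arrays came from KM-H2 cells with PTPN1 siRNA knockdown and the other group of 2 from KM-H2 cells labelled non-silencing. PTPN1 encodes a tyrosine phosphatase that acts on JAK kinases. All cells were grown under the standard conditions of the cell collection. Doses, times and sequences of the small RNAs are not stated in the labels, which also do not say what the non-silencing cells received. The arrays of a group carry the replicate numbers 1 and 2 and are described as technical replicates. SDs, intervals and p-values therefore cover differences between arrays only, and say nothing of cultures.

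MicroRNAs are cut out of long nuclear transcripts by Microprocessor, the complex of DROSHA and DGCR8, and carried to the cytoplasm by XPO5. There DICER1, with its partner TARBP2, trims the hairpin to a short duplex, and 1 strand is held by an Argonaute protein. Argonaute finds target mRNAs by pairing with the small RNA, and TNRC6A links it to the enzymes that shorten the poly(A) tail and remove the cap. A synthetic small interfering RNA skips the nuclear steps but uses the same Argonautes, of which AGO2 is best known for cutting the target.

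The annotation gives all 4 DGCR8 probe sets the second name MIR1306. RefSeq places the microRNA genes MIR1306 and MIR3618 inside DGCR8, and hairpins in the DGCR8 transcript are known to be cut by Microprocessor itself. Their mature microRNAs, from RefSeq on GRCh38.p14, are shown because they are what the second name stands for, together with their neighbour. Capitals mark the seed, bases 2 to 8, and no seed is shared among the 3.
hsa-miR-1306-5p (chr22:20086072-20086093, plus strand): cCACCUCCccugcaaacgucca
hsa-miR-1306-3p (chr22:20086112-20086129, plus strand): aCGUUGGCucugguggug
hsa-miR-3618 (chr22:20085797-20085818, plus strand): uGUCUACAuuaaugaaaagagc
The annotation does not divide the values of these probe sets between the 2 names, and the positions of their probes were not examined.

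In the RefSeq gene order AGO4, AGO1 and AGO3 follow each other on chromosome 1 with 1 other gene between them. Each has a start of its own and its own probe sets. The 250 bases before each start are shown to set these neighbours side by side. Capitals mark the GC box GGGCGG and the CCAAT box CCAAT, searched on both strands.
AGO1 (chr1:35882959-35883208, plus strand, GRCh38.p14): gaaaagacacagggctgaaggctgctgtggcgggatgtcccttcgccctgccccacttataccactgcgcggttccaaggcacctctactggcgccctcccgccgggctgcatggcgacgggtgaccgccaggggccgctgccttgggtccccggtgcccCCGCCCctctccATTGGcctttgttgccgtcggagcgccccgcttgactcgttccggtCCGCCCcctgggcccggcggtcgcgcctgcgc
AGO3 (chr1:35930855-35931104, plus strand, GRCh38.p14): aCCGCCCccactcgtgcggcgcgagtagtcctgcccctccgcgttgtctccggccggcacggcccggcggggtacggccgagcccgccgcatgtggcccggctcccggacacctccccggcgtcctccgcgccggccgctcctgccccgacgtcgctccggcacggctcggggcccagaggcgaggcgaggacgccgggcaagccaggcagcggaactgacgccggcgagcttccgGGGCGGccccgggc
AGO4 (chr1:35807766-35808015, plus strand, GRCh38.p14): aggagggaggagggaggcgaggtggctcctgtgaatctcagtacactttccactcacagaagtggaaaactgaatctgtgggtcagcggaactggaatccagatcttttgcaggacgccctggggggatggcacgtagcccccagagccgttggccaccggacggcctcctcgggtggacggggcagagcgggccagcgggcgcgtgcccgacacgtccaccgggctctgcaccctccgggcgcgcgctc
The AGO3 stretch was 80.0% G or C with 41 CpG pairs, the AGO1 stretch 71.6% with 25 and the AGO4 stretch 66.4% with 20. AGO1 and AGO3 held 2 GC boxes each and AGO4 none.

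Starts were listed for 9 of the 10 genes, 15 starts in all because DICER1 and TARBP2 have several, and the median GC content before them was 66.4% against 58.0% for all 35114 starts in the table. GC boxes stood before 10 of the 15 starts (66.7%, against 42.6% of all starts) and CCAAT boxes before 8 (53.3%, against 32.0%). The TATA box TATAAA was found before 0 of the 15 starts (10.7% of all), and the STAT motif TTCNNNGAA, which reads the same on both strands, before 0 (6.57% of all). Several starts belong to 1 gene, so these shares describe the genes and were not tested.

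Arrays were alike in scale, with medians between 5.10 and 5.12 on the log2 scale. The brightest PTPN1 probe set read 8.16 and 8.40 in non-silencing arrays 1 and 2 and 7.002 and 7.36 in knockdown arrays 1 and 2, a log2 difference of -1.10 (SE 0.18) that did not pass over all probe sets (limma adjusted p = 0.99996). Its 3 other probe sets differed by 0.01, -0.03 and -0.07 and lay below the median of every array. The 7 Hodgkin cell markers, among them TNFRSF8 (CD30), lay above the array median in all 4 arrays. Of the 4 measured B cell markers, PAX5 and CD79A lay above it in all 4, CD79B in 3 and MS4A1 in 1. Markers of other cells were mixed. Above the median in all 4 arrays were 1 of 3 T cell markers (CD3D, 9.76 to 10.4), both measured myeloid markers (CD14, 6.21 to 7.63, and CSF1R), 1 of 3 fibroblast markers (COL1A1, 8.63 to 10.01) and 1 of 3 epithelial markers (KRT18, 5.30 to 5.75). DCN lay above it in 1 array, and CD3E, CD2, COL1A2, EPCAM and CDH1 in none.

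Most probe sets of the machinery lay above the array median in both groups. All 9 measured genes had a brightest probe set above the median of every array, and 24 of the 31 probe sets lay above it in all 4 arrays. An array median splits all probe sets evenly, and choosing the brightest of several raises the count. Markers of other cells, among them COL1A1 and KRT18, passed the same mark, so it is no proof of expression. The share of all genes that pass it was not counted. Only 1 probe set, of AGO4, lay below the lower quartile in all 4. Signal depends on the probes as well as on the transcript, so the order of these values is no order of transcript amounts between genes. RNA came from whole cultures, in which fewer cells with a transcript and less of it per cell cannot be told apart.

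**Figure D1:**
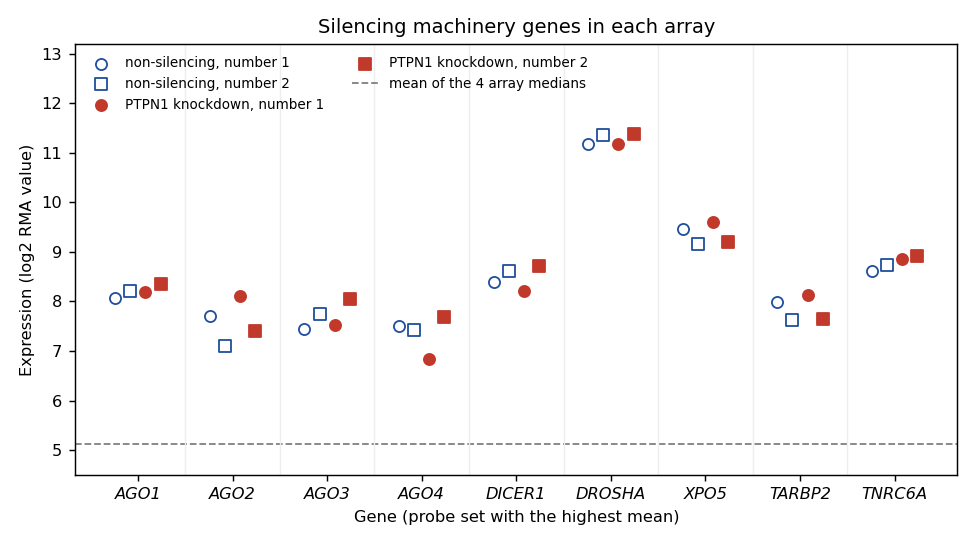
Expression of the brightest probe set of each of the 9 measured genes (log2 RMA value, vertical axis) in each array; open blue symbols are non-silencing and filled red symbols PTPN1 knockdown, circles number 1 and squares number 2, and the dashed line is the mean of the 4 array medians. Every point lies above the line, and the 2 groups overlap for 8 of the 9 genes, TNRC6A being the exception. Among all 19775 genes the groups were apart for 2458 with knockdown higher and for 2968 with it lower.

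No probe set of the machinery passed between knockdown and non-silencing. In limma, 0 of 31 had an adjusted p under 0.05, against 0 of 54613 in all (0%), and 0 of the 31 had an unadjusted p under 0.05, against 1364 in all (2.5%). Positive differences were more frequent than negative ones, with 23 of 31 probe sets above 0 where 48.7% of all probe sets were. Within both array numbers 15 of 31 read higher in knockdown (27.7% of all) and 3 lower (28.5% of all), and the other 13 changed sign between the numbers. Both knockdown arrays lay above both non-silencing arrays for 4 probe sets (13.4% of all) and below them for 2 (15.3% of all). The median log2 difference over the 31 probe sets was 0.10, against -0.0050 over all probe sets, and it was 0.12 within each number. Without non-silencing array 2 the median was 0.020. Probe sets of 1 gene share its transcript and are not independent readings. SEs of the 31 differences ranged from 0.12 to 0.36, which is close to the size of the differences themselves. These SEs, and the p-values and 95% intervals of the groups, come from a fit without a term for the array number. With that term the limma unadjusted p was under 0.05 for AGO2 (0.017, adjusted p = 0.43) and an XPO5 probe set (0.028, adjusted p = 0.49). In all, 4953 of the 54613 probe sets then had an unadjusted p under 0.05. The smallest p that an exact two-sided permutation of 2 against 2 arrays can give is 0.333.

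**Figure D2:**
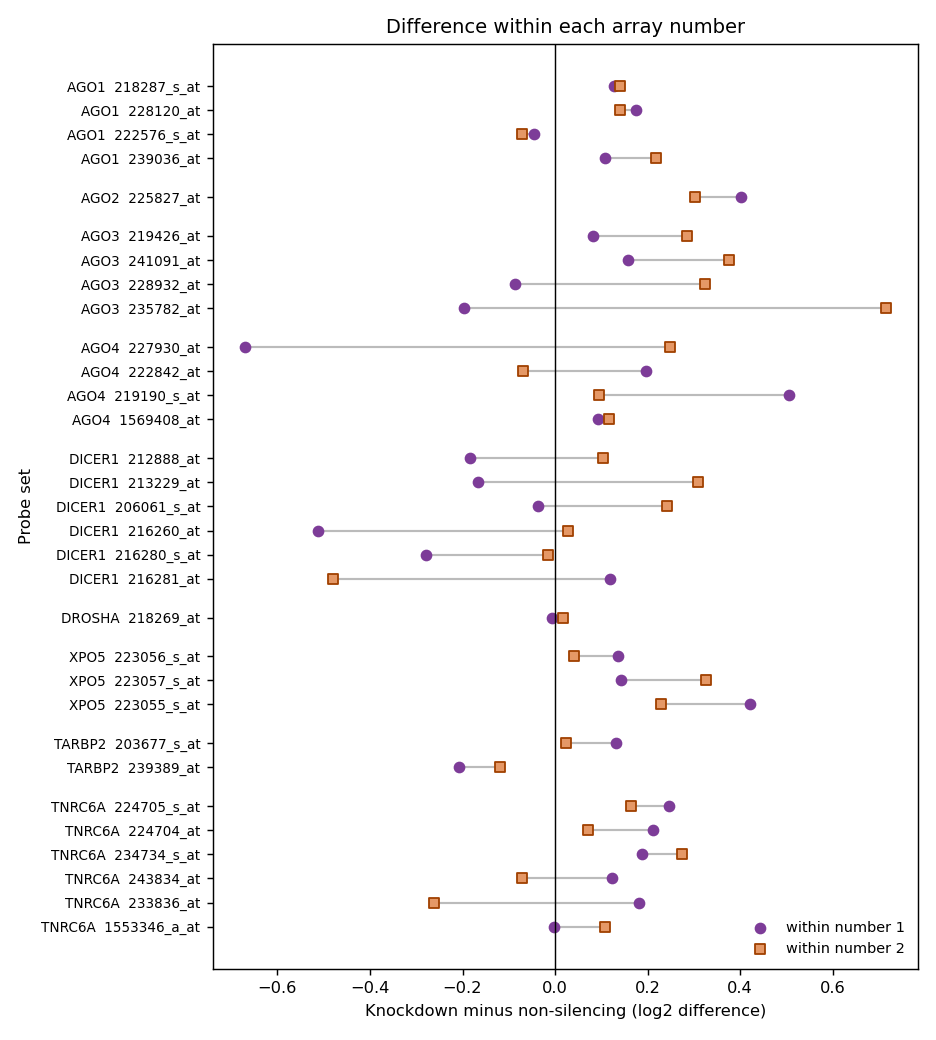
Log2 difference of knockdown minus non-silencing (horizontal axis) for each of the 31 probe sets (rows, grouped by gene), with a purple circle for the arrays numbered 1, an orange square for those numbered 2 and a line joining them. Both symbols lie right of 0 for 15 probe sets and left of it for 3, and the longest lines, in AGO3 and AGO4, cross 0.

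AGO1 had 3 of 4 probe sets higher in knockdown within both numbers. Its brightest probe set read 8.07 and 8.21 without the knockdown and 8.19 and 8.35 with it. Knockdown was the higher within each number, by 0.13 and 0.14, but knockdown array 1 lay below non-silencing array 2. The log2 difference was 0.13, with a 95% interval from -0.22 to 0.49 and a limma adjusted p of 0.99996, which was that of every probe set of these genes. The second AGO1 probe set read 7.78 and 7.81 against 7.95 and 7.95, so that the groups did not overlap, and differed by 0.16. Of the remaining AGO1 probe sets, 1 differed by 0.16 and 1 by -0.06.

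AGO2, which can cut a fully paired target, had the largest difference of the 31 in size. Its only probe set of its own read 7.71 and 7.09 without the knockdown and 8.11 and 7.40 with it. Each knockdown array lay above the non-silencing array of its number, by 0.40 and 0.30, while knockdown array 2 lay below non-silencing array 1. The log2 difference was 0.35 with a 95% interval from -0.44 to 1.147, and -0.0067 without knockdown array 1. The 3 probe sets that carry AGO2 and a second gene differed by 0.13, 0.31 and 0.19. The first of these read 8.36 and 8.35 against 8.47 and 8.51, and the second 7.51 and 7.75 against 7.86 and 8.02. In both, the knockdown arrays lay above the non-silencing arrays, as for 13.4% of all probe sets. The third changed sign, at -0.25 within number 1 and 0.63 within number 2, and lay below the lower quartile in 3 arrays.

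AGO3, an Argonaute closely related to AGO2, read 7.44 and 7.76 without the knockdown and 7.52 and 8.04 with it with its brightest probe set, a log2 difference of 0.18 (95% interval -0.38 to 0.75). All 4 AGO3 probe sets differed in the positive direction, from 0.12 to 0.27, but 2 of them did so by opposite signs in the array numbers. The second brightest read 6.06 and 6.11 against 6.22 and 6.48, with both knockdown arrays above both non-silencing arrays. The widest of the 2 with opposite signs read 5.26 and 4.75 without the knockdown and 5.06 and 5.46 with it, which is -0.20 within number 1 and 0.72 within number 2. Without knockdown array 2 the brightest probe set stood at -0.077.

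AGO4, the neighbour of AGO1 on the chromosome, gave no common direction. Its brightest probe set read 7.51 and 7.43 without the knockdown and 6.84 and 7.68 with it. Knockdown array 1 was the lowest of the 4 and knockdown array 2 the highest, so that the difference of -0.21 (95% interval -0.93 to 0.51) averages -0.67 and 0.25. Without knockdown array 1 it was 0.21. The 3 dimmer probe sets differed by 0.06, 0.30 and 0.10, and the mean over all 4 was 0.064, of opposite sign to the brightest. For the one at 0.30 the groups did not overlap (4.60 and 4.91 against 5.10 and 5.01), at a level below the median of every array.

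In the nucleus, DROSHA, the ribonuclease of Microprocessor, was the closest to 0. Its single probe set read 11.19 and 11.37 without the knockdown and 11.18 and 11.38 with it. The values repeated within each number to 0.02 or less, and the log2 difference was 0.01. Its 95% interval ran from -0.37 to 0.38, so that a change of up to 0.38 either way cannot be told from none. The 4 probe sets that carry DGCR8, the RNA-binding partner of DROSHA, together with MIR1306 differed by 0.03, 0.06, -0.08 and -0.09. The brightest of them read 7.13 and 6.74 against 7.15 and 6.78, and for the dimmest both knockdown arrays (6.31 and 6.29) lay just below both non-silencing arrays (6.47 and 6.32).

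XPO5, the exporter of microRNA precursors, read higher in knockdown within both numbers in all 3 of its probe sets. The brightest read 9.47 and 9.15 without the knockdown and 9.60 and 9.19 with it. In both groups the array numbered 1 was the higher, and the groups overlapped. The log2 difference was 0.09 (95% interval -0.42 to 0.60), and for the dimmer probe sets 0.23 and 0.33. Without non-silencing array 2 or knockdown array 1 the brightest probe set differed by -0.070 and -0.12.

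DICER1, which cuts precursor hairpins to their final length, differed in no common direction. Its brightest probe set read 8.40 and 8.61 without the knockdown and 8.22 and 8.71 with it. The knockdown arrays lay on both sides of the non-silencing arrays, and the difference of -0.04 (95% interval -0.56 to 0.48) averages -0.18 and 0.10. Of the 6 DICER1 probe sets 5 changed sign between the numbers. Those that did so below the brightest differed by 0.07, 0.10, -0.24 and -0.18. The one at -0.24, the most negative of all member probe sets, lay above the median of every array. It read 6.01 and 6.48 without the knockdown and 5.50 and 6.51 with it. The exception, lower within both numbers, was a dim one that read 4.24 and 4.02 against 3.96 and 4.01. Both of its knockdown arrays lay below both non-silencing arrays.

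TARBP2, the double-stranded RNA-binding partner of DICER1, was read by 2 probe sets that went opposite ways. The brighter read 7.99 and 7.63 without the knockdown and 8.12 and 7.65 with it, a difference of 0.08 (95% interval -0.48 to 0.63). The dimmer read 5.60 and 5.43 against 5.39 and 5.32, a difference of -0.16 with both knockdown arrays below both non-silencing arrays. The mean of the 2 differed by -0.043.

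TNRC6A, the scaffold that Argonaute binds, was the only member whose brightest probe set kept the groups apart. Among all 19775 genes the brightest probe set did so for 2458 with knockdown higher and for 2968 with it lower. That of TNRC6A read 8.61 and 8.75 without the knockdown and 8.85 and 8.91 with it, 0.25 and 0.16 higher within the numbers. The log2 difference was 0.20 with a 95% interval from -0.13 to 0.54. The next 2 probe sets by signal differed by 0.14 and 0.23, also higher within both numbers but with overlapping groups, and the 3 dimmer ones by 0.03, -0.04 and 0.05, each of opposite sign in the 2 numbers. Without each array in turn the brightest probe set differed by 0.14 to 0.27. Its direction could not change there, because the groups were apart. For AGO1, whose groups overlapped, the direction of the brightest probe set held as well (0.052 to 0.21).

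As for most probe sets of the arrays, those of the machinery mostly differed more between the array numbers than between the groups. The difference of number 2 minus number 1 exceeded the group difference in size for 22 of the 31 probe sets (71.0%), as it did for 60.4% of all probe sets. With terms for group and number, limma called 6 of the 31 at an adjusted p under 0.05, against 8.09% of all probe sets. The count was 10 of 26 when limited to the 27271 probe sets at or above the median signal. It was 11 of the 31 with a trended and robust variance prior and 2 without the term for group. The shares of all probe sets called under these settings were not counted, and 8.09% belongs to the main fit only. Higher in number 2 were 1 probe set each of DICER1 (by 0.74, adjusted p = 0.029), AGO4 (0.68, adjusted p = 0.021) and AGO3 (0.56, adjusted p = 0.049), where 4.83% of all probe sets were called in limma. Lower in number 2 were 1 each of AGO2 (-0.67, adjusted p = 0.018), AGO1 (-0.63, adjusted p = 0.020) and XPO5 (-0.61, adjusted p = 0.025), where 3.26% were. All 6 differed in the same direction in both groups, which the call itself favours, since disagreement between the groups enters its error. Of the 31 probe sets, called or not, 22 did so, as did 64.5% of all probe sets. For the called AGO1 probe set the arrays numbered 1 read 6.01 and 5.96 and those numbered 2 read 5.39 and 5.32.

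**Figure D3:**
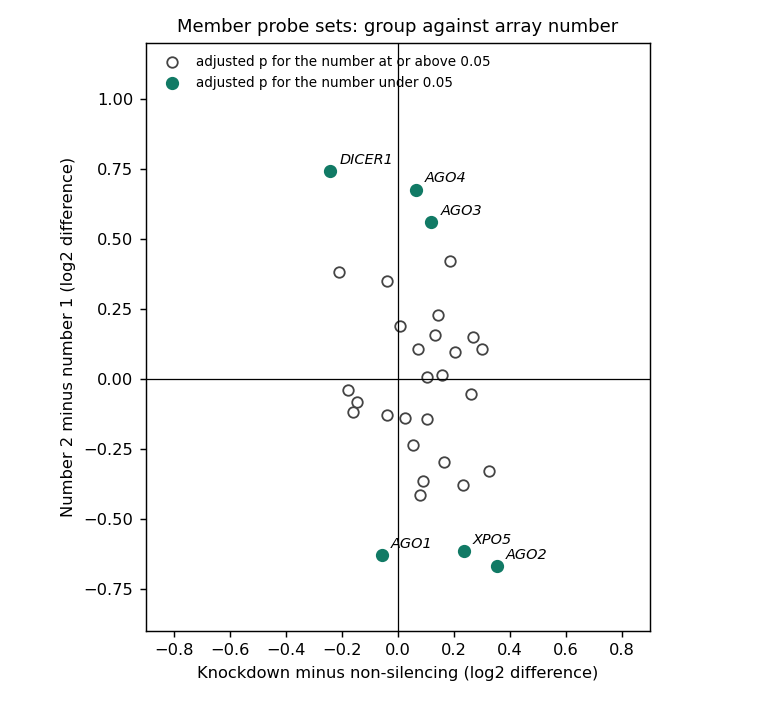
Log2 difference between the groups (knockdown minus non-silencing, horizontal axis) against the log2 difference between the array numbers (number 2 minus number 1, vertical axis) for the 31 probe sets; filled green points, with gene names, passed for the number at a limma adjusted p under 0.05. Points spread further along the vertical axis, from -0.67 to 0.74, than along the horizontal, from -0.24 to 0.35.

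Probe sets of 1 gene disagreed on the array number more than on the group. Those of AGO1 differed between the numbers by 0.16, 0.01, -0.63 and -0.30 in order of signal, a range of 0.78, while their group differences spanned 0.22. For DICER1 the ranges were 0.83 between numbers and 0.34 between groups, for AGO4 0.82 and 0.51, for AGO3 0.62 and 0.15, and for TNRC6A 0.61 and 0.27. They were closer for XPO5 (0.29 and 0.24) and TARBP2 (0.30 and 0.24). The range between numbers was the wider for all 7 members with several probe sets and for 64.6% of the 10523 genes that have several. A measure of RNA integrity and amplification moved with the numbers as well. The beta-actin control probe sets at the 3′ end exceeded those at the 5′ end by 1.31 and 1.33 in the arrays numbered 1 and by 0.972 and 0.969 in those numbered 2. Its part in these differences was not tested.

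Partners of the machinery also gave 0 calls. The 88 genes of 6 further lists of the small RNA pathway had 82 measured members with 216 probe sets, of which 0 passed in limma and 10 had an unadjusted p under 0.05, where 2.5% of all probe sets had. Among 20 cofactors of processing and turnover the median difference over 48 probe sets was 0.02. By brightest probe set 8 of these 20 genes read higher and 6 lower within both numbers, where 27.8% and 29.8% of all genes did. DIS3L2, an exonuclease that degrades tailed let-7 precursors, read 6.47 and 6.33 without the knockdown and 6.81 and 6.69 with it, with the groups apart by 0.35 (limma unadjusted p = 0.047, adjusted p = 0.99996). TSN, a subunit of the nuclease that clears the discarded strand, read 11.05 and 11.15 against 10.85 and 10.96, with the groups apart by -0.20.

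Chaperones that help to load small RNA into Argonaute read higher in both knockdown arrays than in the non-silencing array of the same number. The 6 measured genes, with 16 probe sets, had a median difference of 0.14. Every probe set read higher in knockdown within both numbers, as did 27.7% of all probe sets. Probe sets of the same gene are not independent readings. For 7 of the 16 both knockdown arrays lay above both non-silencing arrays, as they did for 13.4% of all probe sets. PTGES3, the p23 cochaperone of HSP90, read 13.27 and 13.24 without the knockdown and 13.39 and 13.31 with it, a difference of 0.09. This was the larger of the 2 brightest probe sets that kept the groups apart. Among all 19775 genes 2458 were apart in this direction. HSP90AB1, an HSP90 itself, read 12.59 and 12.27 against 12.85 and 12.55, a difference of 0.27 with overlapping groups. None of the 16 had an unadjusted p under 0.05.

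Effectors downstream of Argonaute, which deadenylate, decap or repress the target, had a median difference of 0.03 over 91 probe sets of 29 genes. In limma 0 of the 91 passed and 4 had an unadjusted p under 0.05, where 2.5% of all probe sets had. By brightest probe set 10 of these 29 genes read higher and 5 lower within both numbers, against the same 27.8% and 29.8% of all genes. Both knockdown arrays lay above both non-silencing arrays for 7 of the 29, as for 2458 of all 19775 genes. The widest with the groups apart was EIF4E2, a cap-binding repressor of translation, which read 9.60 and 9.53 without the knockdown and 9.81 and 9.71 with it, a difference of 0.20. TRIM71, a repressor known from embryonic cells, was the only effector whose brightest probe set had the groups apart in the other direction, at -0.18. Among all 19775 genes 2968 were apart in that direction. The TRIM71 values, from 3.53 to 3.84, lie below the lower quartile of every array.

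**Figure D4:**
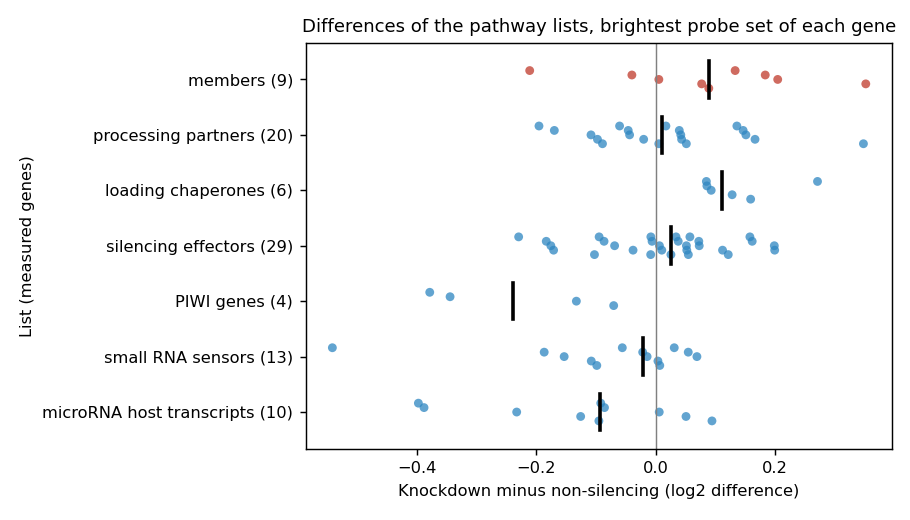
Log2 difference of knockdown minus non-silencing (horizontal axis) for the brightest probe set of each gene in 7 lists (rows, with the number of measured genes); points are genes, spread vertically only for sight, and black bars are medians. The 6 chaperones lie right of 0, the 4 PIWI genes left of it and the other lists on both sides.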

How the data were processed

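Each array was deposited as log2 expression values that the authors obtained by RMA, per the submitters' processing notes; its software and version are not stated in the labels or files. Because RMA equalises the arrays, differences in overall RNA content are not visible. Per the labels' protocols, biotinylated cRNA came from 2 cycles of amplification, which can favour 3′ ends. Gene symbols came from the platform annotation, checked by gene identifier against RefSeq: of 54675 probe sets, 41097 had 1 symbol, 1801 several and 11777 none. Control probe sets (62) were left out.

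All other probe sets were fitted with limma 3.58.1 under R 4.3.3 (lmFit, eBayes, no covariates), two-sided, with Benjamini-Hochberg adjustment over all 54613 and a threshold of 0.05; a second fit had terms for group and number. The methods were tested on simulated data. For the group fit these had independent arrays, so they could not show the effect of same-numbered arrays deviating together. The brightest probe set is the one with the highest mean over the 4 arrays. All member probe sets are reported; of other lists, the genes with the highest and lowest differences among brightest probe sets with groups apart, and HSP90AB1, PIWIL1, PIWIL2, TLR7, IFNB1 and MIR99AHG, chosen after their values were seen. The members and lists were chosen with earlier results of these data known. Sequences came from RefSeq on GRCh38.p14. Alternatives were normalization, centring, signal filters, variance models, gene-level summaries, a replicate block and leaving out each array.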

Additional observations from a re-analysis of the deposited data

How the results depend on the processing

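The count of member probe sets that passed between the groups was 0 under all 13 alternatives tried, leaving out each array included, and the count for the other lists was 0 under 11 of the 12 tried there, the unadjusted p under 0.05 giving 10. The member median of 0.10 was 0.077 with a second quantile normalization, 0.12 with centred arrays, 0.11 with probe sets at or above the median signal, 0.096 with the 7 probe sets of 2 symbols included (chosen after seeing the data), and from 0.020 to 0.14 without 1 array. The count of 6 member probe sets called for the array number was 10, 11 and 2 with the signal filter, the trended and robust prior and no term for group. DROSHA was -0.011 with quantile normalization, AGO4 0.064 and TARBP2 -0.043 with the mean of all probe sets. Without 1 array AGO2 ranged from -0.0067 to 0.71, AGO3 from -0.077 to 0.45, AGO4 from -0.63 to 0.21, DICER1 from -0.29 to 0.21, DROSHA from -0.094 to 0.11, XPO5 from -0.12 to 0.30 and TARBP2 from -0.16 to 0.31. The cause was not tested. The count of 7 of 9 genes above 0 ranged from 5 to 6 without 1 array.

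Same-numbered arrays deviated together (r = 0.593 over all probe sets, which are not independent replicates). There are 2 pairs and no stated batch, and the labels give these arrays only a number in common. With the replicate block 164 probe sets passed in all, 0 of the 31 among them, the member median was 0.10, and the brightest PTPN1 probe set passed (limma adjusted p = 0.0153). The number of arrays limits the precision.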

Other observations

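Sensors of small and double-stranded RNA, which can respond to a transfected small RNA, had 13 measured genes with 31 probe sets and a median log2 difference of 0.01. In limma 0 of them passed and 2 had an unadjusted p under 0.05, where 2.5% of all probe sets had. By brightest probe set 2 of the 13 genes read higher and 5 lower in knockdown within both array numbers, where 27.8% and 29.8% of all genes did. OAS2, which makes the activator of a latent ribonuclease, was the only one whose brightest probe set kept the groups apart. It read 6.51 and 6.54 without the knockdown and 6.39 and 6.45 with it. Among all 19775 genes 2968 were apart in this direction. TLR7, an endosomal receptor for single-stranded RNA, had the widest difference, -0.54, but knockdown array 1 (7.71) carried it: knockdown array 2 read 9.15 against 8.70 and 9.24 in the non-silencing arrays. IFNB1, the interferon beta gene, read from 3.36 to 3.77, below the lower quartile of every array.

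The PIWI list, 3 measured genes of the germline branch of the Argonaute family and the methyltransferase gene HENMT1, had a median difference of -0.24 over 6 probe sets. In limma 0 of the 6 passed and 1 had an unadjusted p under 0.05 (2.5% of all), and 4 of the 6 read lower within both numbers (28.5% of all). PIWIL2 differed by -0.22 within number 1 and 0.08 within number 2. PIWIL1, a germline Argonaute, read 7.46 and 7.80 without the knockdown and 6.90 and 7.60 with it. HENMT1, which methylates the ends of PIWI-bound RNAs, was the only one whose brightest probe set kept the groups apart. It read 4.23 and 4.42 against 4.15 and 3.81. Among all 19775 genes 2968 were apart in this direction. Transcripts that carry microRNA hairpins had a median of -0.09 over 24 probe sets of 10 genes. In limma 0 passed and 1 had an unadjusted p under 0.05 (2.5% of all). MIR210HG, the host of miR-210, read 4.92 and 5.07 against 4.72 and 4.47, with the groups apart by -0.40, and MIR99AHG 5.35 and 5.84 against 4.97 and 5.44.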
